A study of Mus musculus with 8 samples.

Results

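Adrenal steroid and catecholamine genes were followed in RNA from whole mouse spines. The set holds 10 of the 27179 genes in the counts table, found by matching its Entrez gene IDs to mouse symbols: 7 genes of the adrenal cortex (Cyp11b1, Cyp11a1, Star, Hsd3b1, Cyp21a1, Nr5a1 and Mc2r) and 3 of the adrenal medulla (Th, Dbh and Pnmt). All 10 were found, and all 10 passed the filter on low counts that left 18104 genes for testing. The spines came from embryos at E18.5 in 4 groups of 2 libraries each: male Pax1-Enh knockout (KO), male wild type (WT), female KO and female WT. The series concerns the removal of a genomic region at Pax1, a gene of the embryonic vertebral column, that is linked to adolescent idiopathic scoliosis. The labels give no strain, no zygosity, no extent of the deletion, and no word on whether the paired libraries of a group came from separate embryos, so p-values measure the spread between these libraries. Levels are given in CPM, read counts scaled to each library's size after TMM normalisation. Levels of different genes are compared per kilobase of exon (CPM per kb), unless counts or summed CPM are named.

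The adrenal gland lies beside the kidney, in front of the vertebral column, and joins tissues of separate origin. Its cortex makes steroid hormones from cholesterol: Star carries cholesterol into the mitochondrion, Cyp11a1 cleaves the side chain to give pregnenolone, Hsd3b1 and Cyp21a1 carry the steroid onward, and Cyp11b1 makes corticosterone, the main glucocorticoid of mice. Nr5a1 encodes the nuclear receptor known as steroidogenic factor, which switches on steroidogenic genes in the adrenal and the gonads, and Mc2r is the receptor through which pituitary corticotropin drives the cortex. The medulla consists of chromaffin cells of neural crest origin: Th makes L-DOPA, Dbh turns dopamine into noradrenaline, and Pnmt turns noradrenaline into adrenaline. Sympathetic neurons also use Th and Dbh, whereas Pnmt is characteristic of adrenaline-making chromaffin cells.

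Library totals ran from 59722279 to 67575728 counts in KO and from 35181518 to 48021848 counts in WT, and 3 counts were worth 0.0392 to 0.0831 CPM. The labels do not say that exons of Pax1 were deleted, so its level does not check them: it stood at 18.9 to 30.4 CPM in KO and 17.0 to 27.0 CPM in WT. Sex-linked genes matched the labelled sex in 8 of 8 libraries. Genes of the labelled tissue (cartilage, bone, muscle and nervous tissue) summed to 11612 to 27080 CPM in KO and 5558 to 11321 CPM in WT. Most of this sum was the cartilage gene Col2a1, at 7979 to 22474 CPM in KO and 3526 to 8737 CPM in WT. Before any result, 3 libraries must be named because they stood apart in the cortex genes: female KO 2, male WT 2 and female WT 1.

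Promoter sequence is shown for members on both sides of the pattern that follows: Cyp11a1 and Hsd3b1, which were high together in those 3 libraries, and Th and Dbh, which were not. RefSeq windows on GRCm38.p6, the mm10 assembly, were at hand for these 4 members. Each line gives the 250 bases before an annotated transcript start, 5′ to 3′ on the gene's strand, with letters in capitals where a searched motif was found on either strand. The Cyp11a1 window is chr9:58014702-58014951 on the plus strand, before a transcript start inside the annotated gene, and Hsd3b1 is chr3:98859795-98860044 on the minus strand. The Th window is chr7:142899996-142900245 on the minus strand, and Dbh is chr2:27165257-27165506 on the plus strand.
Cyp11a1: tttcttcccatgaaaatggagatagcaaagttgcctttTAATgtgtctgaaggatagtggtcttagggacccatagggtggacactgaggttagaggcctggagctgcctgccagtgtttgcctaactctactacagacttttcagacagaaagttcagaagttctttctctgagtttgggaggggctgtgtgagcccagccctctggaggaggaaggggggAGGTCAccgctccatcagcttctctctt
Hsd3b1: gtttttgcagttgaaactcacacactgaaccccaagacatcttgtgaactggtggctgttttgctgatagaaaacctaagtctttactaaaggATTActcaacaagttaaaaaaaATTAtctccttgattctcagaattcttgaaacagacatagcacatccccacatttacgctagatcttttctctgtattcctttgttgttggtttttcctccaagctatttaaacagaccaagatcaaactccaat
Th: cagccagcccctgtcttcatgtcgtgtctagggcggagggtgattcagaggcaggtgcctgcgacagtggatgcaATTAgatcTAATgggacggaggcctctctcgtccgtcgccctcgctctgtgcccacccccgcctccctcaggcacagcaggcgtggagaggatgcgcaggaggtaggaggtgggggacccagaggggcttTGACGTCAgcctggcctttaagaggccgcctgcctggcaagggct
Dbh: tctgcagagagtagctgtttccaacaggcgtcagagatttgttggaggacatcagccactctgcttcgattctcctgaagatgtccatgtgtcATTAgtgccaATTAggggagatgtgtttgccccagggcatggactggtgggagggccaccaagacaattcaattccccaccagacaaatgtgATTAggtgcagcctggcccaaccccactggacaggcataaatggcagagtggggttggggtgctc
The motifs searched were AGGTCA, a nuclear receptor half-site, its extended form CAAGGTCA, and CAAGGCCA, which differs from CAAGGTCA by 1 base. The cyclic AMP response element TGACGTCA and the homeodomain core ATTA were also searched. The Cyp11a1 window shown held AGGTCA at -28 from the start and no CAAGGTCA or CAAGGCCA. A second Cyp11a1 window, chr9:57997774-57998023 before the start of the annotated gene, held none of these 3 and is not printed. Th held TGACGTCA at -45. ATTA lay at -157 and -135 in Hsd3b1, at -157, -147 and -65 in Dbh, on both strands in Th, at -175 and -167, and on the opposite strand in Cyp11a1, at -212 in the window shown and -189 in the other. Among 32851 RefSeq windows of this length, 14.0% held AGGTCA, 1.33% CAAGGTCA, 1.99% CAAGGCCA, 1.55% TGACGTCA and 54.9% ATTA on either strand. ATTA in any single window is thus common, and its presence in all 4 was not tested. These matches describe letters in the window and were not tested for binding.

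Cyp11b1 was nearly absent from 5 libraries and abundant in 3. It had 1 and 25 counts in male KO against 2 and 4238 among WT males, and 3 and 6725 counts in female KO against 2182 and 3 in female WT. On the CPM scale the 3 high libraries were female KO 2 at 95.7, male WT 2 at 97.8 and female WT 1 at 49.1. The other 5 stood at 0.0131 to 0.464 CPM, and in 4 of them the count was no higher than 3. Each genotype and each sex thus included a high and a low library, with the exception of male KO, where both libraries were low. Cyp11b1 lies on chromosome 15 at 74834892 to 74841643, minus strand.

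Cyp21a1 (chromosome 17, 34801348 to 34804426, minus strand) followed Cyp11b1 almost count for count. It had 4 and 23 counts in male KO against 2 and 4457 among WT males, and 6 and 7192 counts in female KO against 2244 and 8 in female WT. Hsd3b1 (chromosome 3, 98842356 to 98859794, minus strand) had 61 and 48 counts in male KO against 91 and 3395 among WT males, and 10 and 4242 counts in female KO against 1279 and 7 in female WT. Both enzymes therefore had their 3 highest libraries where Cyp11b1 had them, but Hsd3b1 kept a higher base in the male libraries (0.797 and 0.892 CPM in male KO, 2.24 CPM in male WT 1) than in the low female ones (0.179 CPM in female KO 1, 0.194 CPM in female WT 2).

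Star and Cyp11a1, which act at the start of the pathway, were present in every library. Star (chromosome 8, 25808474 to 25815982, plus strand) was at 3.74 and 4.92 CPM in male KO against 3.35 and 108 CPM among WT males, and at 3.11 and 125 CPM in female KO against 54.5 and 2.85 CPM in female WT. Cyp11a1 (chromosome 9, 57998024 to 58027031, plus strand) was at 2.46 and 2.25 CPM in male KO against 1.70 and 58.1 CPM among WT males, and at 1.30 and 47.4 CPM in female KO against 33.0 and 1.44 CPM in female WT. The same 3 libraries were high, but the highest library exceeded the lowest by 43.8 times for Star and 44.6 times for Cyp11a1, because neither gene fell to a handful of counts: their lowest counts were 103 and 52. For Cyp11b1, Cyp21a1, Hsd3b1 and Nr5a1 the lowest library held 1, 2, 7 and 2 counts, and no such ratio is given.

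The regulator and the receptor were lower in level. Nr5a1 (chromosome 2, 38692656 to 38714542, minus strand) had 8 and 20 counts in male KO against 3 and 264 among WT males, and 2 and 634 counts in female KO against 215 and 6 in female WT. Mc2r was at 1.16 and 2.21 CPM in male KO against 1.73 and 6.97 CPM among WT males, and at 0.911 and 4.54 CPM in female KO against 2.63 and 1.36 CPM in female WT. Mc2r varied least of the cortex genes, by 7.65 times between its extreme libraries, and the gap between male KO 2 and female WT 1 was small (119 against 117 counts in libraries of different size).

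**Figure D1:**
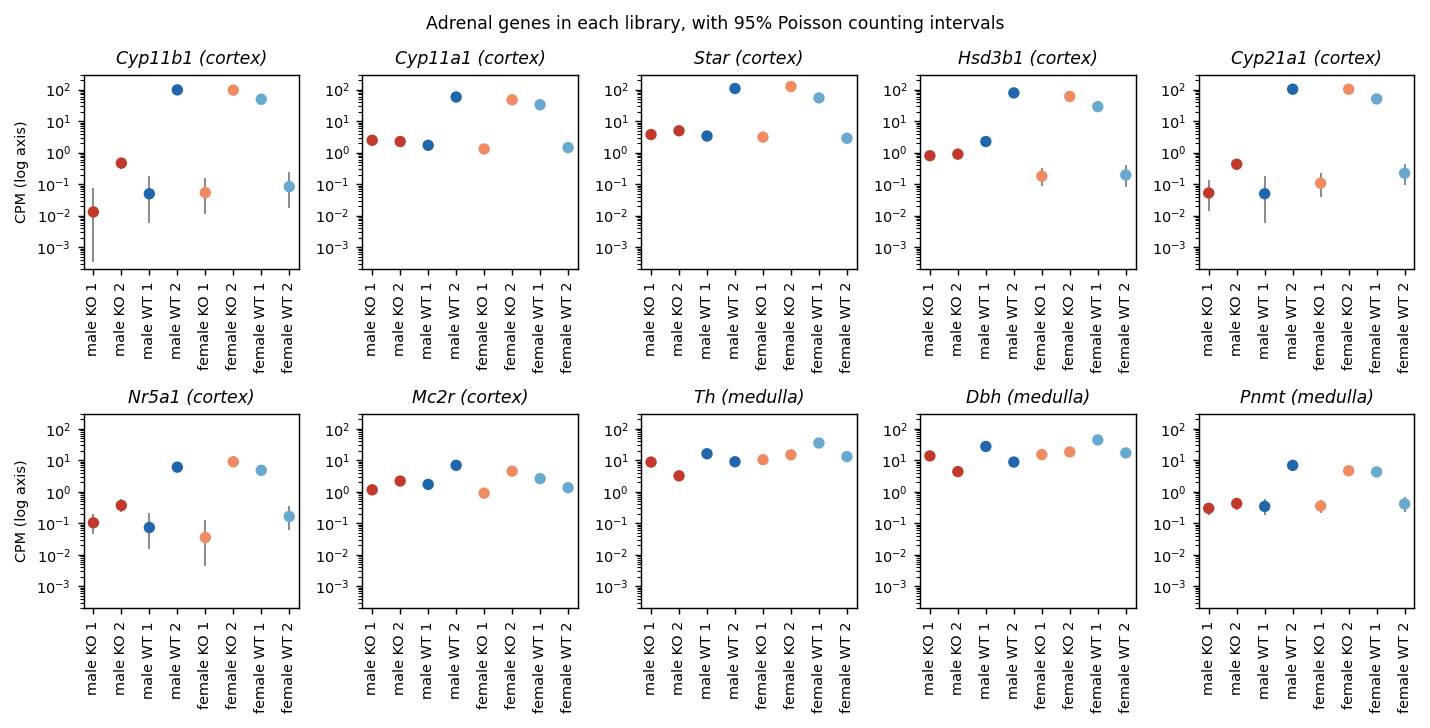
CPM of the 10 adrenal genes in each of the 8 libraries on a log axis, KO in reds and WT in blues, with 95% Poisson intervals that cover counting error only. Female KO 2, male WT 2 and female WT 1 stand above the other 5 in all 7 cortex panels and for Pnmt, while Th and Dbh peak in female WT 1.

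All 7 cortex genes had female KO 2, male WT 2 and female WT 1 as their 3 highest libraries. Of all 18104 tested genes 1.65% (298) had that pattern, for which Cyp11b1 served as the template. Of the 3 medulla genes, Pnmt had it. Of 11 tested genes in a further list of cortex genes 5 had it: Akr1b7, an aldo-keto reductase abundant in the mouse adrenal cortex, Cyp11b2, the aldosterone synthase of the outer cortex, Nr0b1, a nuclear receptor that works with Nr5a1, Fdxr, the reductase that feeds electrons to mitochondrial steroid enzymes, and Inha, an inhibin subunit. None did among 16 chromaffin and sympathoadrenal, 8 sympathetic neuron, 8 sensory neuron, 9 gonad or 9 kidney genes. The pattern is one of rank, not of size. Akr1b7 was at 88.4 to 181 CPM in the 3 libraries and 0.428 to 3.32 CPM in the others. Inha was at 13.0 to 14.6 CPM in the 3 libraries and 10.3 to 11.7 CPM in the others. Fdxr was at 14.4 to 18.2 CPM in the 3 libraries and at 13.2 CPM in female WT 2. Nr0b1 had 21 to 42 counts in the 3 libraries and 9 to 19 in the others. In bulk RNA, fewer cells of a type and less RNA per cell cannot be told apart, and dissection was not recorded library by library in the labels.

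Per length, the cortex genes had the same first and last ranks in the high libraries. Cyp21a1 led at 47.8 CPM per kb in female KO 2, 48.0 in male WT 2 and 23.6 in female WT 1. Hsd3b1 followed at 32.6, 42.2 and 15.5 CPM per kb in the same libraries, Cyp11b1 at 30.2, 30.9 and 15.5, and Star at 30.4, 26.3 and 13.2. These 3 genes lay close together in female KO 2 and in female WT 1, and their order differed between libraries. Cyp11a1 was lower (9.86, 12.1 and 6.87 CPM per kb), and Mc2r (2.78, 4.27 and 1.61) and Nr5a1 (2.13, 1.44 and 1.14) were lowest.

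The make-up of the cortex sum differed between the high and the low libraries. As a share of the summed cortex level in CPM per kb, Cyp21a1 made up 30.7% in female KO 2, 29.1% in male WT 2 and 30.4% in female WT 1. Cyp11b1 made up 19.4%, 18.7% and 20.0%. In the other 5 libraries Cyp21a1 contributed 0.660% to 5.07% and Cyp11b1 0.158% to 3.73%. There Star (23.3% to 43.0%) and Mc2r (27.3% to 39.6%) were the larger shares, and in male WT 1 Hsd3b1 reached 34.6%. Star per length was 220 and 8.16 times Cyp11b1 in male KO against 52.3 and 0.852 times among WT males, and 44.6 and 1.00 times in female KO against 0.854 and 26.4 times in female WT. In 4 of the 5 low libraries these ratios rest on 1 to 3 counts of Cyp11b1.

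**Figure D2:**
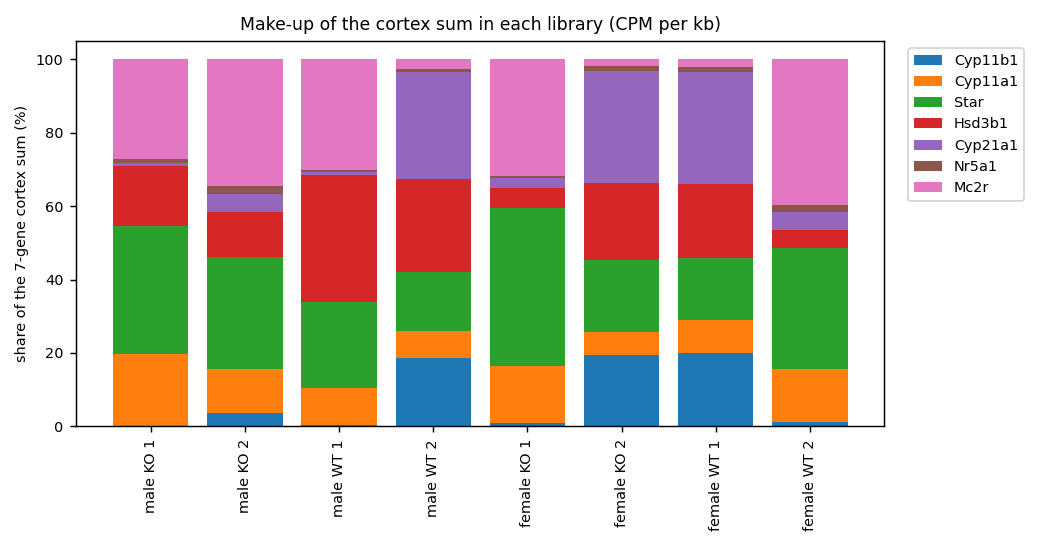
Share of each cortex gene in the summed level of the 7 genes, in percent of CPM per kb, for each library. Female KO 2, male WT 2 and female WT 1 have nearly the same make-up, led by Cyp21a1 at 29.1% to 30.7%, while Star and Mc2r take larger shares in the other 5.

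Th and Dbh were present in every library and did not follow the cortex genes. Th (chromosome 7, 142892779 to 142899995, minus strand) was at 8.81 and 3.23 CPM in male KO against 16.2 and 9.04 CPM among WT males, and at 10.5 and 15.0 CPM in female KO against 35.6 and 13.2 CPM in female WT. Dbh (chromosome 2, 27165507 to 27183204, plus strand) was at 13.9 and 4.40 CPM in male KO against 27.6 and 8.86 CPM among WT males, and at 15.2 and 18.55 CPM in female KO against 44.6 and 17.2 CPM in female WT. Both genes were lowest in male KO 2 and highest in female WT 1, by 11 times for Th and 10.1 times for Dbh. Their ratio stayed narrow: Th per length was 0.723 to 0.922 of Dbh in KO and 0.668 to 1.16 of Dbh in WT. The high value belonged to male WT 2, one of the libraries rich in cortex genes.

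Pnmt (chromosome 11, 98386623 to 98388180, plus strand) had its 3 highest libraries where the cortex genes had theirs. It had 23 and 23 counts in male KO against 14 and 301 among WT males, and 20 and 329 counts in female KO against 191 and 15 in female WT. Pnmt thus stood at 0.301 to 0.427 CPM in its 5 low libraries, and at 4.68 CPM in female KO 2, 6.94 CPM in male WT 2 and 4.30 CPM in female WT 1. Per length, Pnmt was 5.06% and 22.6% of Dbh in male KO against 2.91% and 183% among WT males, and 5.46% and 58.9% in female KO against 22.5% and 5.63% in female WT. Its share of Dbh in male KO 2 was as high as in female WT 1, on only 23 counts of Pnmt and the lowest Dbh of all libraries.

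The ratio of cortex to medulla was formed in each library from the summed levels in CPM per kb. The cortex sum was 2.62 and 3.93 in male KO against 3.49 and 165 among WT males, and 1.76 and 156 in female KO against 77.5 and 2.10 in female WT. The medulla sum was 9.14 and 3.37 in male KO against 17.4 and 13.1 among WT males, and 10.4 and 17.3 in female KO against 35.3 and 12.3 in female WT. Th and Dbh, which sympathetic neurons also use, made up most of the medulla sum in every library. The share of Pnmt in it ran from 1.72% in male WT 1 to 45.8% in male WT 2. The ratio of the sums was thus 0.286 and 1.17 in male KO against 0.200 and 12.6 among WT males, and 0.169 and 9.0 in female KO against 2.19 and 0.170 in female WT. Cortex genes outweighed medulla genes in 4 libraries, of which male KO 2 came close to parity through its low Th and Dbh rather than a high cortex sum. From mean log2 levels in place of sums, the log2 ratio was negative in male KO 2 (-1.35, against 0.22 from sums) and in female WT 1 (-0.45, against 1.13 from sums), and it stayed positive in female KO 2 and male WT 2. With Pnmt alone as the medulla, cortex outweighed medulla in every library.

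**Figure D3:**
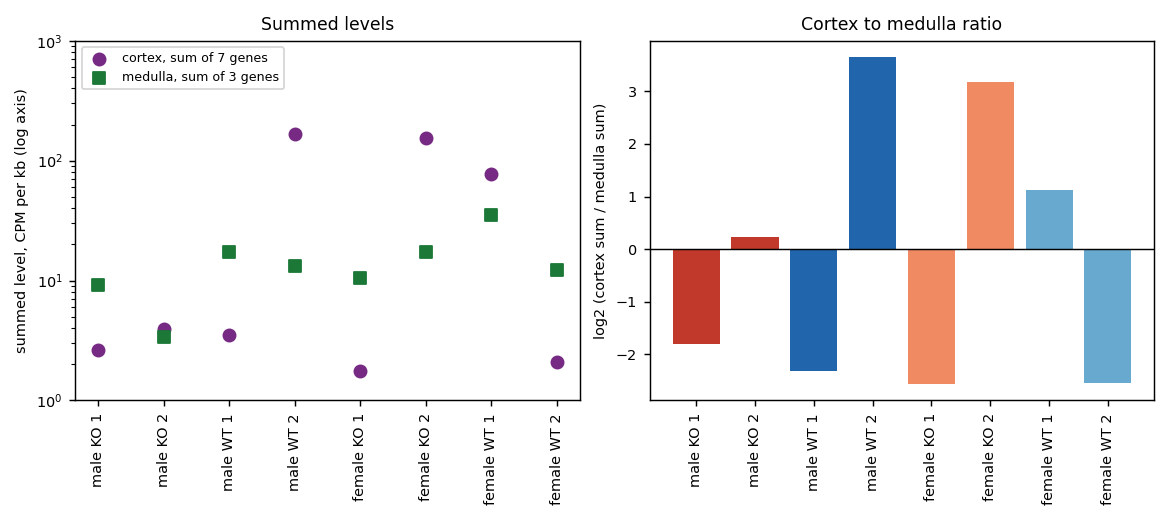
Left, summed levels of the 7 cortex and 3 medulla genes in CPM per kb on a log axis; right, log2 of their ratio, 1 bar per library. The cortex sum spans 1.76 to 165 and the medulla sum 3.37 to 35.3, and the ratio of sums is above 0 on the log2 scale in male KO 2, male WT 2, female KO 2 and female WT 1, of which male KO 2 and female WT 1 fall below 0 from mean log2 levels.

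The comparison the series was built for is KO against WT in each sex. In males none of the 10 genes differed at an adjusted p of 0.05 in edgeR's quasi-likelihood test, none had an unadjusted p under 0.05, and none was called by DESeq2 or limma voom. Over all tested genes edgeR called 0%, 14.8% had an unadjusted p under 0.05, and DESeq2 called 2.69%. All 10 log2 fold changes were negative, with a median of -3.74 over the 7 cortex genes and -1.06 over the 3 medulla genes, beside -0.06 over all tested genes. The libraries of male WT were far apart: Cyp11b1 was at 0.239 ± 0.319 CPM in male KO and 48.9 ± 69.1 CPM in male WT (SD, n = 2 each). Its log2 fold change was -7.80 (SE 3.74, 95% interval -16.31 to 0.71, edgeR adjusted p = 0.362), and without male WT 2 the value was 2.10.

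Hsd3b1 and Th were the members without overlap between male KO and male WT, both lower in KO, a pattern shared by 23.9% of tested genes, while none of the members was higher in KO without overlap, as 19.7% of genes were. Hsd3b1 had a log2 fold change of -5.58 (SE 2.61, edgeR adjusted p = 0.355) and kept its sign without male WT 2, at -1.41. Th had a log2 fold change of -1.06 (SE 0.58, edgeR adjusted p = 0.398), from 6.02 ± 3.94 CPM in male KO and 12.6 ± 5.08 CPM in male WT (SD, n = 2 each). Dbh overlapped (log2 fold change -0.99, SE 0.67, edgeR adjusted p = 0.486).

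In females none of the 10 genes passed in edgeR (0% of all genes; 9.27% at an unadjusted p under 0.05, none of them a member), DESeq2 (0.795% of all genes) or limma voom, and none had groups that did not overlap (25.9% of genes higher and 26.2% lower in KO without overlap). Each female genotype held 1 library rich in cortex genes, and the 7 cortex log2 fold changes were all positive with a median of 0.96, beside 0.03 over all tested genes. Their intervals were wide: that of Cyp11b1 ran from -5.07 to 6.99 around 0.96 (edgeR adjusted p = 0.894). Without female KO 2 it was -8.78 and without female WT 1 it was 9.11, so 1 library decided the sign. Star was at 64.0 ± 86.1 CPM in female KO and 28.7 ± 36.5 CPM in female WT (SD, n = 2 each), with a log2 fold change of 1.16 (SE 1.74, edgeR adjusted p = 0.798). Th was at 12.8 ± 3.18 CPM in female KO and 24.4 ± 15.8 CPM in female WT (log2 fold change -0.93, SE 0.57, edgeR adjusted p = 0.577, n = 2 each).

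**Figure D4:**
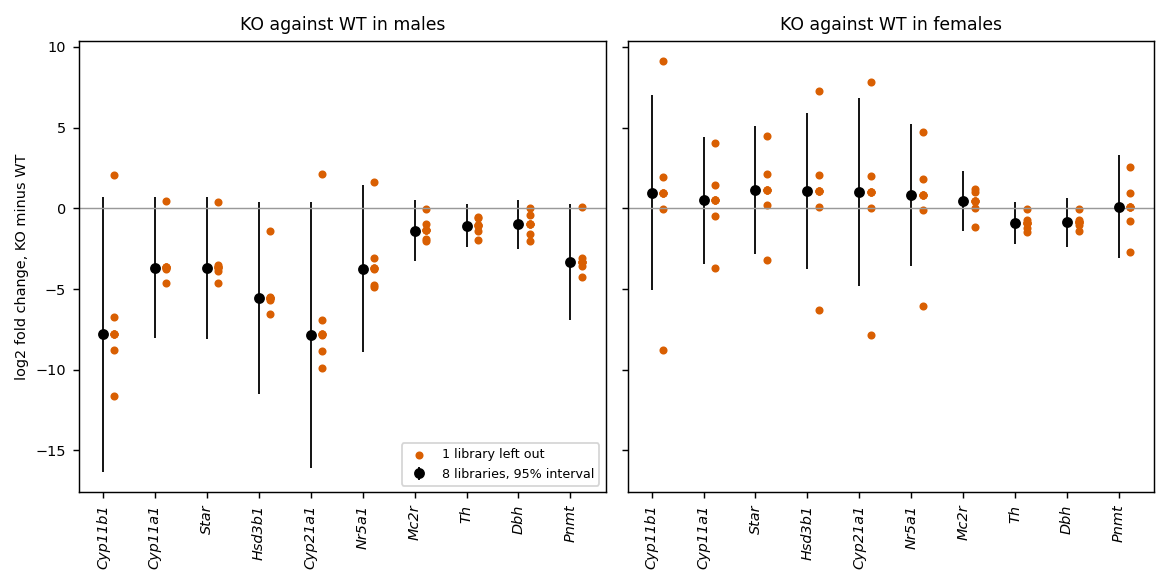
Log2 fold change, KO minus WT, of each gene in males (left) and females (right) with its 95% interval in black, and the values with 1 library left out in orange. Every interval includes 0, from -16.31 to 0.71 for Cyp11b1 in males, and for cortex genes in females the orange points lie on both sides of 0.

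Over both sexes, edgeR called none of the members and 0% of all genes, and DESeq2 (0.779% of all genes) and limma voom called no member either. Th had the smallest p among the members, at 9.39 ± 4.87 CPM in KO and 18.51 ± 11.7 CPM in WT (SD, n = 4 each). Its log2 fold change was -0.999 (SE 0.39, 95% interval -1.89 to -0.11, edgeR adjusted p = 0.712). It was the 1 member with an unadjusted p under 0.05, beside 6.83% of all genes, and its value stayed between -1.32 and -0.67 with any 1 library left out. Dbh had a log2 fold change of -0.93 (SE 0.46, edgeR adjusted p = 0.754). No member had 4 KO and 4 WT libraries without overlap, beside 1.68% of genes higher and 1.63% lower in KO. The cortex genes had a median log2 fold change of -1.55, and that of Cyp11b1 was -2.96 (SE 4.09, edgeR adjusted p = 0.962), 1.10 without male WT 2 and -7.99 without female KO 2.

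The female KO effect minus the male KO effect was tested as an interaction. No member passed in edgeR (0% of all genes; 16.7% at an unadjusted p under 0.05, no member among them), DESeq2 (1.99% of all genes) or limma voom. The smallest adjusted p in edgeR belonged to Cyp21a1, with a difference of 8.85 on the log2 scale (SE 4.37, adjusted p = 0.329). For Th and Dbh the difference was 0.13 (SE 0.80) and 0.12 (SE 0.94), with edgeR adjusted p = 0.943 and 0.954.

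Further genes of the pathway were read from lists of known roles. The 12 other cortex genes summed to 112 to 351 CPM in KO and 191 to 399 CPM in WT, and differed among themselves. Akr1b7 was at 3.32 and 1.76 CPM in male KO against 1.31 and 181 CPM among WT males, and at 0.428 and 122 CPM in female KO against 88.4 and 0.499 CPM in female WT. Cyp11b2 had 0 counts in both male KO libraries against 0 and 106 among WT males, and 0 and 134 counts in female KO against 47 and 0 in female WT. In counts, not divided by length, Cyp11b2 amounted to 1.99% of Cyp11b1 in female KO 2, 2.50% in male WT 2 and 2.15% in female WT 1. The Cyp11b1 transcript has 3165 bases and that of Cyp11b2 1625, so the share per length would be higher. Mrap, the accessory protein of the corticotropin receptor that is also expressed in fat, did not follow the cortex members. It was at 3.03 and 1.32 CPM in male KO against 35.3 and 12.6 CPM among WT males, and at 1.18 and 9.0 CPM in female KO against 19.5 and 79.6 CPM in female WT. The summed brown fat genes were likewise highest in female WT 2 (2597 CPM), followed by male WT 1 (1114 CPM). A link between Mrap and fat in these libraries was not tested. Por, the microsomal electron donor, ranged from 24.4 to 47.5 CPM in KO and 28.2 to 69.4 CPM in WT. Of the 11 tested genes in this list edgeR called 0 in every comparison, 3 had an unadjusted p under 0.05 in males, 1 in females and 2 over both sexes, and DESeq2 called Gata6 in males and Mrap over both sexes. Beside these and the list counts that follow stand the shares over all tested genes: an unadjusted p under 0.05 in 14.8% in males, 9.27% in females and 6.83% over both sexes, and DESeq2 calls in 2.69%, 0.795% and 0.779%.

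The summed level of cholesterol supply genes varied less than that of the cortex genes: the 12 summed to 702 to 925 CPM in KO and 789 to 1229 CPM in WT. Hmgcs1, an early enzyme of cholesterol synthesis, was at 211 to 313 CPM in KO and 225 to 298 CPM in WT, Npc2, a lysosomal cholesterol carrier, at 152 to 170.4 CPM in KO and 127 to 236 CPM in WT, and Tspo, a mitochondrial outer membrane protein, at 16.6 to 22.4 CPM in KO and 21.4 to 116 CPM in WT. EdgeR called 0 of 12 in each comparison, with 1, 2 and 2 genes at an unadjusted p under 0.05 in males, in females and over both sexes. DESeq2 called 2 in females, Tspo and Lipe. Both were highest in female WT 2 (116 and 284 CPM), the library where the brown fat genes below were highest. Lipe is also in the brown fat list, so its call is counted again there.

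Chromaffin and sympathoadrenal genes, 16 in number, summed to 429.5 to 473 CPM in KO and 319 to 591 CPM in WT, and none of them had the 3 highest libraries of Pnmt. Penk, which encodes enkephalin precursors, was at 107 to 163 CPM in KO and 97.5 to 176 CPM in WT, and Scg2 was at 66.0 to 86.8 CPM in KO and 37.4 to 97.7 CPM in WT. Chga, like Scg2 a granin of secretory granules, was at 38.6 to 84.5 CPM in KO and 48.2 to 78.9 CPM in WT. EdgeR called 0 of 16 in each comparison, 7 had an unadjusted p under 0.05 in males (14.8% of all tested genes did), 1 in females (9.27%) and 2 over both sexes (6.83%), and DESeq2 called Slc18a2, the vesicular monoamine transporter, in males. The transcription factors Phox2a and Hand2, picked out after their values were seen, were lowest in male KO 2 (1.54 and 1.39 CPM) and highest in female WT 1 (9.99 and 11.9 CPM), as Th and Dbh were. So was Slc6a2, the noradrenaline transporter of sympathetic neurons, at 6.39 CPM in male KO 2 and 31.9 CPM in female WT 1.

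Genes of other organs varied by library as well. Pancreas genes summed to 1.07 to 2.57 CPM in KO and, in WT, to 1960.4 CPM in female WT 1 and 1.04 to 6.40 CPM in the other libraries. Brown fat genes summed to 35.8 to 74.6 CPM in KO and 160.3 to 2597 CPM in WT, highest in female WT 2, and liver genes to 65.9 to 1090.5 CPM in KO and 38.0 to 1202 CPM in WT. Lung genes were at 2.54 to 4.95 CPM in KO and 1.93 to 30.7 CPM in WT. Kidney genes, from the organ next to the adrenal, summed to 11.4 to 18.9 CPM in KO and 14.3 to 17.9 CPM in WT with Umod at 0 in all 8 libraries, and gonad genes to 11.1 to 14.0 CPM in KO and 10.6 to 16.7 CPM in WT. None of the tested genes of these 6 lists had its 3 highest libraries where the cortex genes had theirs. Their part in the adrenal values was not tested. EdgeR called 0 genes of these lists and 0 of 8 spine genes in each comparison. At an unadjusted p under 0.05, where all tested genes gave 14.8%, 9.27% and 6.83%, there were, in males, in females and over both sexes, 0, 6 and 1 of 6 pancreas genes, 5, 6 and 6 of 8 brown fat genes, 5, 1 and 1 of 7 lung genes, 0, 1 and 1 of 9 kidney genes, 1, 2 and 1 of 9 gonad genes, 2, 2 and 2 of 8 spine genes, and 0 of 7 liver genes throughout. DESeq2 called 6 pancreas and 6 brown fat genes lower in female KO, 5 brown fat genes over both sexes, 3 lung genes in males and 1 spine gene in females.

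**Figure D5:**
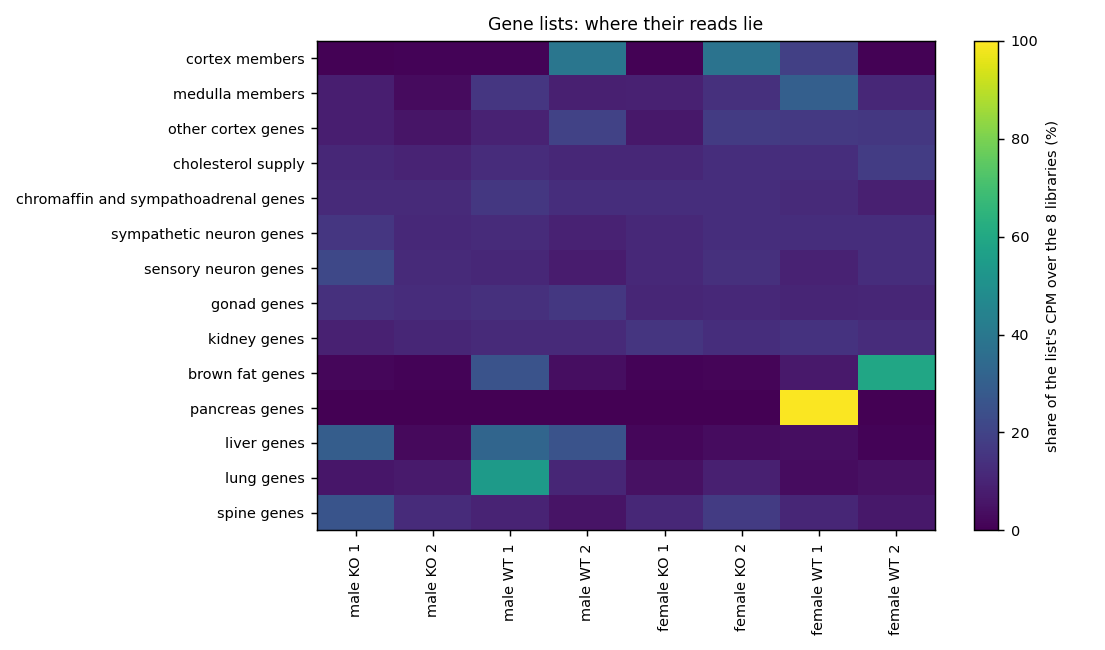
Each row is a gene list and each column a library; colour gives the share of that list's CPM over the 8 libraries found in that library, in percent. Cortex genes lie in female KO 2 (38.1%), male WT 2 (39.3%) and female WT 1 (19.1%), while pancreas (99.3%) lies in female WT 1 and brown fat (59.3%) in female WT 2.

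Across all genes with a mean of at least 1 CPM and a name, those most like Cyp11b1 were ranked by the root mean square difference of centred log2 CPM over the 8 libraries, where smaller means more alike and the median over 14964 candidates was 4.62. The closest were Akr1b7 (1.76), Akr1cl (1.78), Hao2 (2.68), Ren1 (2.87), Mgarp (3.51), Ly6d (3.54), Cela1 (3.79), Adh7 (3.87), Cckar (3.88) and Spink1 (4.0). Ren1 encodes renin, known from the kidney and the fetal adrenal of mice, and was at 0.222 and 0.204 CPM in male KO against 0.567 and 3.71 CPM among WT males, and at 0.411 and 6.71 CPM in female KO against 9.45 and 0.499 CPM in female WT. Cela1, Cckar and Spink1, which are known from the exocrine pancreas, were each highest in female WT 1, at 38.5, 6.70 and 13.7 CPM. Among the members the same measure gave 0.43 for Cyp21a1, 1.94 for Hsd3b1, 2.01 for Nr5a1, 2.38 for Star, 2.44 for Cyp11a1, 2.84 for Pnmt, 3.80 for Mc2r, 4.40 for Th and 4.59 for Dbh.

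For Pnmt, the candidates' median was 1.83 and the nearest genes included Ren1 (0.70), Mgarp (0.81), Ly6d (0.94), Adh7 (1.08), Hao2 (1.21), Wfdc2 (1.29), Fdxr (1.31), Hes5 (1.36) and Akr1cl (1.37). Of these, 6 stood also among the 10 nearest to Cyp11b1. Pnmt was closer to Cyp11a1 (0.57) and Star (0.59) than to Th (1.67) or Dbh (1.87).

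Some members share sequence with close relatives, and how reads with several matches were counted is not given in the sources used here. Cyp11b1 and Cyp11b2 transcripts are 87.9% identical over 1517 bases, with a longest identical run of 244 bases, so a small Cyp11b2 count beside a large Cyp11b1 count is uncertain. Cyp21a1 is 97.5% identical over 1382 bases to the pseudogene Cyp21a2-ps, and Hsd3b1 is 88.1% identical over 1341 bases to Hsd3b6. Exons of Cyp11b1 overlap Gml2 and those of Cyp21a1 overlap Tnxa on the opposite strand, by 285 and 102 bases, and Cyp11a1 overlaps Gm17322 on its own strand by 145 bases. The strand setting of the counting is not given either.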

How the data were processed

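The authors deposited raw counts of reads per gene, not normalised, in a single table covering all 8 libraries. According to the labels' protocols the RNA came from crushed frozen spines by way of TRIzol, followed by a stranded mRNA kit. FastQC 1.0.0, MultiQC 1.0.0, HISAT2, featureCounts and mm10 are named in the submitters' processing notes, without settings.

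Entrez IDs took symbols from RefSeq (25275), GENCODE (18) or neither (1886). Genes were filtered with filterByExpr (minimum count 10) and fitted in edgeR 4.0.16 (R 4.3.3) with TMM and a quasi-likelihood fit of 4 groups, or of sex plus genotype for the comparison over both sexes. P-values are two-sided and adjusted over 18104 genes by the Benjamini-Hochberg method, with a threshold of 0.05. The fitted biological coefficient of variation was 27.8%. The test was first tried on simulated data. Exon length is the union of a gene's exons in GENCODE M21. Counting intervals are Poisson, at 95%, and cover counting error only. All libraries were kept. The counts of replicates were further apart than sampling allows (chi-square over its degrees of freedom, 131 to 645), which does not say whether any library should be left out.

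The 10 members were given, and the lists of cortex, cholesterol, chromaffin, sympathetic neuron, sensory neuron, gonad, kidney, brown fat, pancreas, liver, lung and spine genes were chosen with earlier results of these data known. Named were the 10 members, the 10 genes nearest Cyp11b1 and Pnmt, and in each list the 3 genes with the highest per-length level plus any past the threshold. A few of these are not reported here. Alternatives were RLE size factors, no filter, DESeq2 1.42.0, limma voom 3.58.1, a replicate block and each library left out in turn. Leaving out 3 libraries together and crossing the female replicate numbers were added after the data were seen.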

Additional observations from a re-analysis of the deposited data

Results flagged for a closer look

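Among the 4 KO libraries, female KO 2 lay far above the other 3 for 7 of the 10 adrenal genes. The gap from female KO 2 to the next library, as a share of the whole range of CPM in the 4 KO libraries, was 0.995 for Cyp11b1, 0.996 for Cyp21a1, 0.988 for Hsd3b1, 0.985 for Star, 0.975 for Cyp11a1, 0.963 for Nr5a1 and 0.971 for Pnmt. Each of these lies above Dixon's 95% critical value for 4 samples. Chance flags about 1 in 20 such groups when values are normally distributed, which was not tested for these CPM values. These 7 genes share their libraries, so the flags are not independent. In the 4 WT libraries, where male WT 2 and female WT 1 were both high, no member was flagged. The rule seeks 1 library apart from the other 3, so a pair of high libraries can escape it. Mc2r, Th and Dbh were not flagged in KO or in WT.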

How the results depend on the processing

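Under 15 alternatives for each of the 4 comparisons no member passed the threshold; 1 of the 15, without the 3 libraries rich in cortex genes, was chosen by the members' own values and leaves 1 library in each group except male KO, so it says nothing of stability. Over all 15, the lowest adjusted p of any member was 0.159 in males, 0.374 in females, 0.364 over both sexes and 0.217 for the interaction. The sign of a log2 fold change differed from the one reported in 7 of 130 values in males, 22 of 130 in females and 8 of 130 over both sexes. With 1 library left out, values ran in males from -11.63 to 2.10 (Cyp11b1), -4.62 to 0.47 (Cyp11a1), -4.65 to 0.37 (Star), -9.88 to 2.13 (Cyp21a1), -4.85 to 1.60 (Nr5a1), -2.05 to 0.048 (Dbh) and -4.26 to 0.064 (Pnmt), and in each of these genes except Dbh the positive value was without male WT 2; for Dbh it was without male WT 1. In females the ranges were -8.78 to 9.11 (Cyp11b1), -3.72 to 4.06 (Cyp11a1), -3.21 to 4.47 (Star), -6.33 to 7.25 (Hsd3b1), -7.86 to 7.82 (Cyp21a1), -6.04 to 4.73 (Nr5a1), -1.13 to 1.18 (Mc2r) and -2.72 to 2.58 (Pnmt). Over both sexes they were -7.99 to 1.10 (Cyp11b1), -3.67 to 0.49 (Cyp11a1), -3.48 to 0.85 (Star), -5.78 to 0.10 (Hsd3b1), -7.81 to 1.15 (Cyp21a1), -4.29 to 1.01 (Nr5a1), -1.26 to 0.26 (Mc2r) and -3.07 to 0.085 (Pnmt).

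Replicate numbers were not taken to pair samples: deviations of the first replicates correlated at 0.15 between male KO and male WT, -0.14 between female KO and female WT, and -0.53 to 0.18 between the other groups. With the replicate block the female values turned to -5.73 (Cyp11b1), -1.26 (Cyp11a1), -0.86 (Star), -1.48 (Hsd3b1), -5.12 (Cyp21a1), -2.12 (Nr5a1), -0.083 (Mc2r) and -1.16 (Pnmt), and the block made 0 calls; with the female numbers crossed there were also 0 calls. In limma voom, Nr5a1 was at -0.46 and Pnmt at -0.048 in females. The cause of these changes was not tested.

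The log2 ratio of cortex to medulla, from mean log2 levels in place of sums, was -3.84 in male KO 1 (-1.80 from sums), -1.35 in male KO 2 (0.22 from sums) and -0.45 in female WT 1 (1.13 from sums). With Pnmt alone as medulla it was 3.33 in male KO 1, 3.41 in male KO 2, 3.55 in male WT 1, 2.51 in female KO 1, 4.38 in female WT 1 and 2.54 in female WT 2. Over all genes, edgeR's count of 0 calls became 39 in males with no filter, and DESeq2 called 487 in males, 144 in females, 141 over both sexes and 361 for the interaction. Without female WT 2, edgeR called 14 genes in females and 8 for the interaction, and without the 3 libraries rich in cortex genes 73, 104, 16 and 21. With 1 to 3 counts of Cyp11b1 in 4 libraries, its level there is known only to lie near the floor.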

Other observations

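Neuron lists, which hold genes that sympathetic and sensory ganglia along the spine are known to express, moved apart from the cortex genes. Sympathetic neuron genes, 8 in number, summed to 384 to 528 CPM in KO and 327 to 446 CPM in WT, and sensory neuron genes to 139 to 256 CPM in KO and 90.8 to 154 CPM in WT. Prph, a neuronal intermediate filament, was at 167 to 249.8 CPM in KO and 117 to 238 CPM in WT, and Avil, an actin-binding protein of sensory neurons, at 37.3 to 81.4 CPM in KO and 17.3 to 56.6 CPM in WT. EdgeR called 0 of 8 in each list and each comparison. At an unadjusted p under 0.05 there were 0 sympathetic genes in males, in females and over both sexes, and 3, 1 and 2 sensory genes, beside 14.8%, 9.27% and 6.83% of all tested genes. DESeq2 called no sympathetic gene, and 1 sensory gene in males.

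In the list of gonad genes, where Nr5a1 and Star are also known to be expressed, Insl3 was at 0.0186 to 0.0854 CPM in KO and 0 to 0.0692 CPM in WT. Cyp17a1, which mouse gonads use and the mouse adrenal largely lacks after birth, had 1 to 17 counts in KO and 1 to 5 counts in WT, with the 17 counts in female KO 2.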
